A study of Rattus with 27 samples.

Results

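The genes described here are 10 p53 targets and growth arrest genes: Cdkn1a, Gadd45a, Gadd45b, Gadd45g, Mdm2, Btg2, Ccng1, Sesn1, Plk2 and Plk3. Each was read from probes with a single gene symbol; where a gene had several, the brightest on average over 27 arrays stood for it. Of the 10 genes, 9 had such a probe, 1 each, among 14506 genes tested. Btg2 was not analysed here. The choice did not rest on a measured value of these arrays, but it was made with results of the same data known.

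The 27 arrays measured total RNA of 9 Sprague Dawley rats, 3 rats in each of 3 groups, with brain homogenate, white blood cells separated from whole blood and spleen homogenate from every rat. All tissues were taken at 6 h. Sham rats received anaesthesia and had the vessels separated, and every other rat underwent middle cerebral artery occlusion (MCAO), a blockage of a large brain artery that models ischaemic stroke. The protocol names these operated groups vehicle control and YJ, given at 25 mg/kg, whereas the arrays are titled model and vehicle. The series title spells YJ out as Yiqi Jiedu formulae. The labels do not settle which of them received YJ, so a difference between the model-labelled and vehicle-labelled rats cannot be read as an effect of either agent. Age and sex of the rats are not given in the labels used here.

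The transcription factor p53 is held at a low level by Mdm2, a ubiquitin ligase that is itself a p53 target, and it accumulates when DNA is damaged or the cell is stressed. Its best known target is Cdkn1a, which encodes the cyclin-dependent kinase inhibitor p21 and halts the cell cycle. The Gadd45 proteins are small stress sensors that bind the kinase MTK1 and act upstream of p38 and JNK, and their genes are also switched on without p53. In neurons, which do not divide, Gadd45b, Gadd45g and Plk2 are known as genes induced by synaptic activity, and Gadd45b takes part in DNA demethylation.

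Values are RMA intensities on a log2 scale, on which a step of 1 is a doubling. They ran from 1.53 to 13.49 over all arrays, with array medians between 4.96 and 5.31. Arrays of a group correlated with r between 0.968 and 0.995 across genes. Markers separated brain from the other tissues, though not every one. The neuronal gene Snap25 read 11.72 to 12.47 in brain and at most 4.07 elsewhere. The T cell gene Cd3e read 8.86 to 10.03 in white blood cells, 7.18 to 8.88 in spleen and at most 4.99 in brain. The neutrophil gene Csf3r read 8.80 to 9.80 in white blood cells and 6.63 to 8.16 in spleen. The oligodendrocyte gene Mbp went against the labels, at 6.64 to 7.36 in brain, 7.72 to 8.89 in white blood cells and 6.74 to 7.41 in spleen. The white blood cell samples also held red cell RNA, with the erythroid enzyme gene Alas2 between 8.45 and 11.62. Within brain, vehicle-labelled rat 2 and sham rat 5 stood apart, and they are called the 2 brain arrays low in cortical markers from here on. The mean of 5 measured cortical marker genes was 6.86 and 6.23 there and 8.77 to 9.47 on the other 7, and the mean of 9 hypothalamic and thalamic genes was 5.89 and 7.84 there and 4.67 to 5.46 on the others. Calls on the 9 genes in brain are therefore given with and without both arrays. Marker and related gene lists in brain, and some of the genes that were not called, are given with all arrays only.

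In brain, 3 of the 9 genes were higher in model-labelled than in sham rats: Gadd45b 4.5-fold, Gadd45g 3.55-fold and Cdkn1a 2.34-fold. None was lower at an adjusted p under 0.05. Over all 14506 genes 1.16% passed this threshold, 1.08% as higher and 0.0758% as lower. On 7 of the 9 genes the arrays of the groups did not overlap, 6 with the model-labelled arrays higher and Sesn1 with them lower, against 20.1% of all genes, 11.7% higher and 8.34% lower. The median difference was 1.15 over the 9 genes and 0.03 over all genes, both in log2. Brain homogenate averages over all its cells, so more cells of a type and more RNA per cell cannot be told apart in any of these values.

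Gadd45b, whose product senses stress and acts on p38 and JNK, read 6.48, 5.72 and 5.73 on the sham arrays and 8.20, 8.15 and 8.09 on the model-labelled arrays. The lowest model-labelled array lay well above the highest sham array, and the 3 model-labelled rats were close together. The difference was 2.17 ± 0.28 in log2 (SE, n = 3 per group; limma, adjusted p = 0.0063). This call held when any 1 of the 9 brain arrays was left out, with adjusted p between 0.00101 and 0.0376.

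Gadd45g, its paralogue, read 4.82, 4.78 and 5.07 on the sham arrays, near or below the median of all probes, and 7.48, 6.12 and 6.55 on the model-labelled arrays. Every model-labelled array was higher than every sham array, with rat 1 the highest. The difference was 1.83 ± 0.30 (SE, n = 3 per group; limma, adjusted p = 0.0225). Without sham rat 3, sham rat 4 or model-labelled rat 3 the call was lost, with an adjusted p of up to 0.0981.

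Cdkn1a, the p21 gene, read 6.60, 5.73 and 6.44 on the sham arrays and 7.59, 7.33 and 7.53 on the model-labelled arrays. The groups did not overlap, and sham rat 4 was the lowest. The difference was 1.23 ± 0.24 (SE, n = 3 per group), close to the threshold at an adjusted p of 0.0466 (limma). In 7 of the 9 fits that left out 1 array it no longer passed, with adjusted p between 0.0431 and 0.178 over all 9.

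Gadd45a, the family member first described as a DNA damage gene and a p53 target, read 6.14, 6.50 and 7.15 in sham and 7.67, 8.01 and 7.57 in model-labelled brain. Its groups did not overlap either, but sham rat 5 lay well above the other sham rats. The difference of 1.15 ± 0.28 (SE, n = 3 per group) did not pass (limma, adjusted p = 0.108). Without the 2 brain arrays low in cortical markers it was 1.43 ± 0.17 with an adjusted p of 0.0017.

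The polo-like kinase genes Plk2 and Plk3 did not pass. Plk2, which acts at synapses of active neurons, read 9.59, 9.31 and 7.41 in sham and 10.60, 9.84 and 10.13 in model-labelled brain. The low value is that of sham rat 5, whose cortical markers were low. The difference was 1.42 ± 0.58 (SE, adjusted p = 0.315) with all arrays and 0.74 ± 0.20 (adjusted p = 0.111) without the 2 brain arrays low in cortical markers. Plk3, a stress-responsive kinase gene, read 5.36, 4.94 and 4.95 in sham and 6.38, 5.86 and 5.79 in model-labelled brain. These groups did not overlap, and the difference was 0.93 ± 0.27 (SE, adjusted p = 0.174).

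The remaining 3 genes did not pass either. Mdm2, the p53 inhibitor, differed by 0.31 with a 95% interval from -0.09 to 0.71. Ccng1, the cyclin G1 gene and an early known p53 target, differed by -0.02 with an interval from -0.53 to 0.49. Sesn1, which encodes the stress protein sestrin 1 that restrains mTORC1, read 6.77, 6.51 and 6.74 in sham and 6.35, 6.27 and 6.22 in model-labelled brain. All its model-labelled arrays were lower than all sham arrays, at -0.39 ± 0.12, with an interval from -0.66 to -0.13 (SE, limma, adjusted p = 0.18). In this fit of the 9 brain arrays Cdkn1a was called beside Gadd45b and Gadd45g, and Gadd45a, Mdm2, Ccng1, Sesn1, Plk2 and Plk3 were not. The Cdkn1a call was lost in 7 of the 9 fits that left out 1 array. Gadd45a was called without the 2 brain arrays low in cortical markers. The activity of p53 was not tested. A fit of all 27 arrays called 6 of the 9 genes, where it called 3.84% of all genes. It added Gadd45a (limma, adjusted p = 0.033), Plk2 (adjusted p = 0.0432) and Plk3 (adjusted p = 0.00855). That fit gives a gene the same variance in all tissues. Within tissues the SE of this difference for Plk2 was 0.58 in brain, 0.14 in white blood cells and 0.18 in spleen. For Plk3 this SE was 0.27, 0.13 and 0.15 in the same order, and for Gadd45a 0.28, 0.17 and 0.32. The differences stayed at 1.42 for Plk2, 0.93 for Plk3 and 1.15 for Gadd45a. The added calls are therefore no further evidence from the brain arrays.

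**Figure D1:**
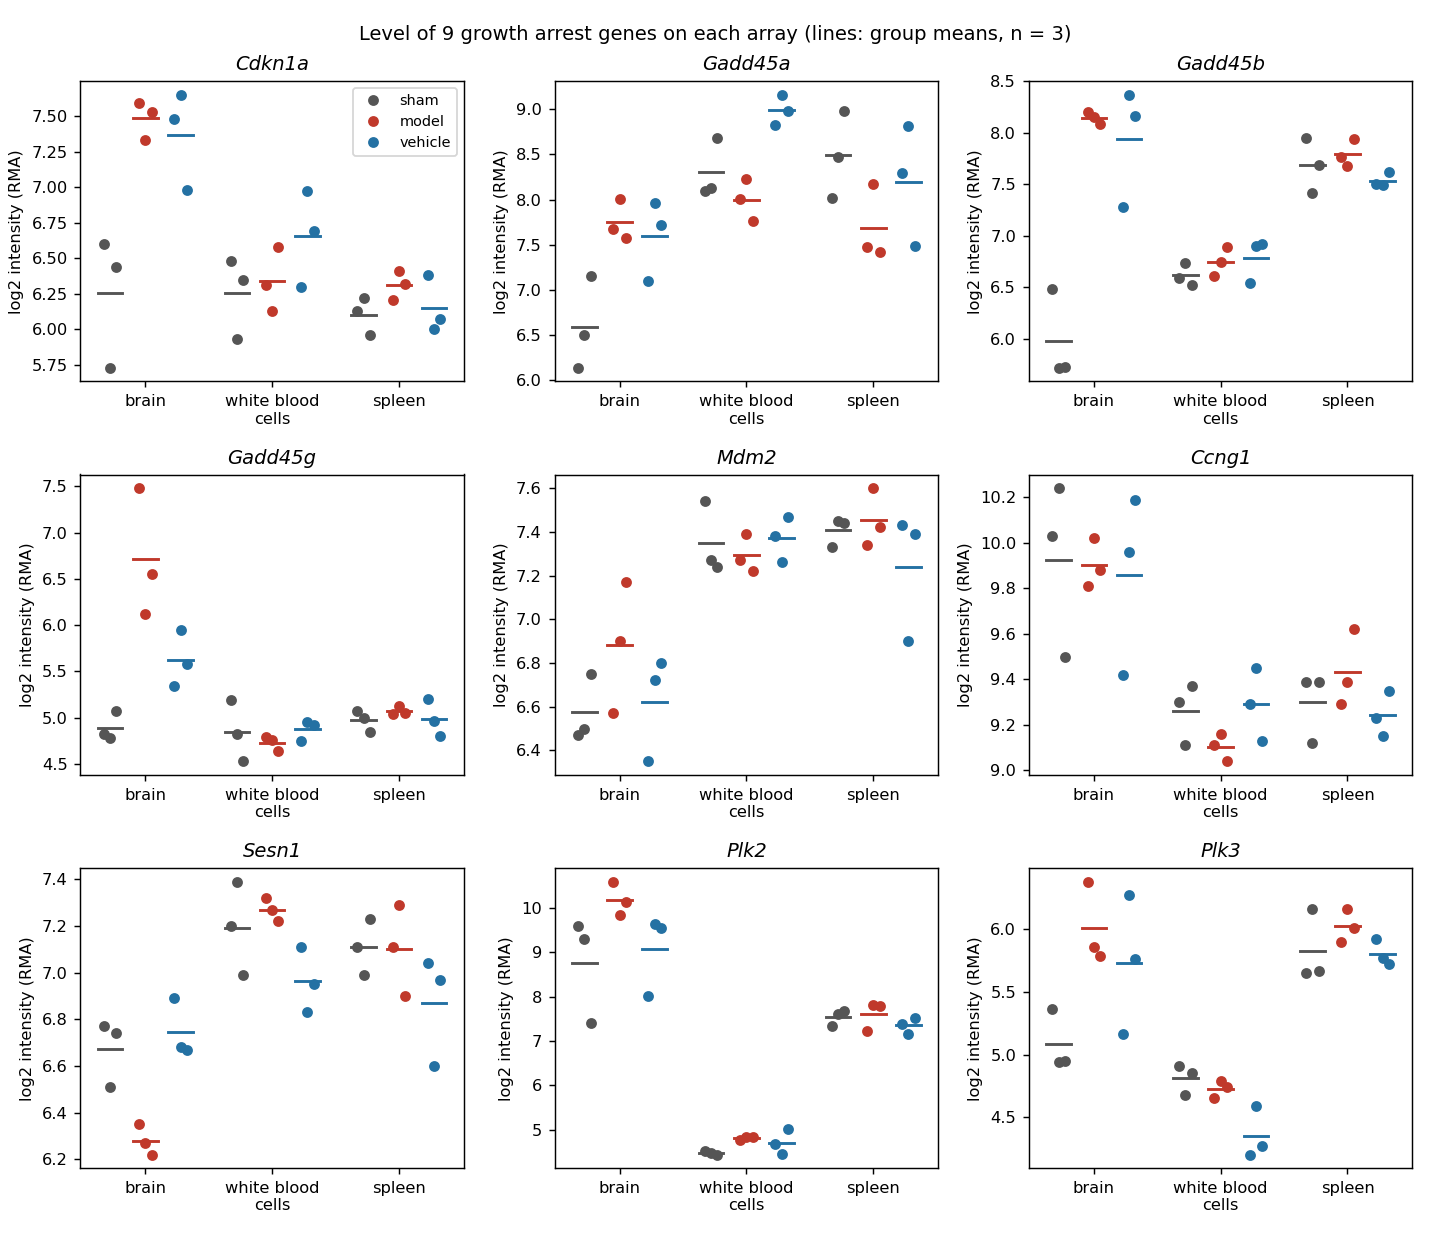
Log2 intensity of each of the 9 genes on each of the 27 arrays, by tissue and group (grey sham, red model-labelled, blue vehicle-labelled; points are rats, lines group means, n = 3). In brain Gadd45b lies between 8.09 and 8.20 in the model-labelled rats and between 5.72 and 6.48 in sham, while in white blood cells and spleen its groups overlap or nearly touch.

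Without the 2 brain arrays low in cortical markers, the same comparison called 4 of the 9 genes as higher, where 2.24% of all genes were called and 1.88% as higher. Gadd45b was 2.05 ± 0.20 higher (adjusted p = 0.000461), Gadd45g 1.92 ± 0.31 (adjusted p = 0.0105) and Cdkn1a 1.32 ± 0.26 (adjusted p = 0.0263), with Gadd45a as the fourth. Plk3 at 0.86 (adjusted p = 0.0878), Mdm2 at 0.40 (adjusted p = 0.332) and Sesn1 at -0.36 (adjusted p = 0.236) were not called. The fit without these arrays compares 2 sham rats with 3 model-labelled rats.

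**Figure D2:**
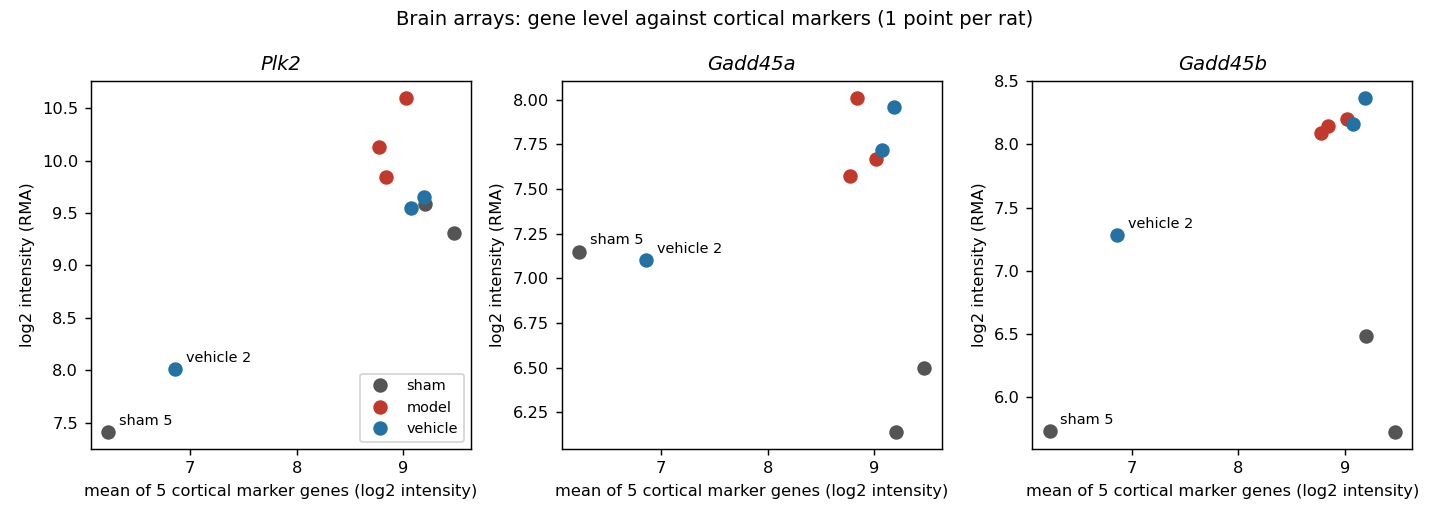
Log2 intensity of Plk2, Gadd45a and Gadd45b on the 9 brain arrays against the mean log2 intensity of 5 cortical marker genes, 1 point per rat (grey sham, red model-labelled, blue vehicle-labelled). Sham rat 5 (cortical mean 6.23) and vehicle-labelled rat 2 (6.86) lie apart on the left and hold the lowest Plk2 values, 7.41 and 8.01, whereas Gadd45b separates sham from the operated rats on both sides of the gap.

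Some markers of other cells differed between model-labelled and sham brain, though few passed. Medians of 7 astrocyte, 5 microglia and 9 neuron genes were -0.05, -0.06 and 0.23, with 0 that passed. Of 13 neutrophil genes 0 passed, with 9 higher at an unadjusted p under 0.05, and all 13 differences were above 0. Their mean level was 4.81 to 5.02 on the model-labelled arrays against 4.27 to 4.49 on the sham arrays. Of 7 monocyte and macrophage genes 1 was higher, the lipopolysaccharide co-receptor gene Cd14 by 2.26 ± 0.32 (SE, limma, adjusted p = 0.00901), and the mean level was 6.18 to 6.34 against 5.71 to 5.80. Of 6 endothelial genes Flt1, a VEGF receptor gene, was higher by 0.73 (adjusted p = 0.0375) and Slco1a4, a blood-brain barrier transporter gene, was lower at -1.98 (adjusted p = 0.0162), with mean levels that overlapped. Of 9 oligodendrocyte genes 0 passed, with 3 lower at an unadjusted p under 0.05, a median of -0.59 and means of 7.11 to 8.52 against 7.95 to 8.67. Of 7 choroid plexus genes 0 passed, with 2 higher at that level, and the mean was 6.42 on the array of model-labelled rat 3 against 4.17 to 4.54 on the other model-labelled and the sham arrays. The part of any of these cells in the differences of the growth arrest genes was not tested. Of the 20 measured cell cycle and DNA replication genes 0 passed, with 2 higher at an unadjusted p under 0.05 and a median of 0.11.

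Other p53 regulators and targets were looked at as a list, of which 30 of 35 were measured. In brain 1 of the 30, Ier3, was higher in model-labelled rats, at 1.69 ± 0.24 (SE, limma, adjusted p = 0.00912), and 0 were lower. Ier3 is an early response gene that modulates cell survival. At an unadjusted p under 0.05, 5 of the 30 were higher and 2 lower, where 2085 of all 14506 genes were under 0.05. The median of the 30 was 0.10 against 0.03 over all genes. Gdf15 at 0.76 ± 0.22 (SE, limma, adjusted p = 0.169) and Rrm2b at -0.46 ± 0.15 (adjusted p = 0.209) did not pass. The pro-apoptotic p53 target Pmaip1, named after its value was seen, was 1.07 ± 0.22 higher without passing (adjusted p = 0.0555), while the pro-apoptotic targets Bax at 0.14 ± 0.12 and Bbc3 at 0.11 ± 0.12, also named afterwards, differed by about their SE. Of 15 measured relatives of the 9 genes, such as Cdkn1b, Btg1 and Sesn3, 0 passed, with 1 higher and 2 lower at an unadjusted p under 0.05.

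In brain of the vehicle-labelled rats 0 of the 9 genes passed against sham (limma), where 0.0483% of all genes passed, that is 7 genes. At an unadjusted p under 0.05 there were 5 of the 9, where 9.33% of all genes were. The sham arrays are those of the comparison above, so the comparisons are not independent. The median difference was 0.65 over the 9 genes and 0.01 over all genes. On Cdkn1a, Gadd45b and Gadd45g the arrays did not overlap with sham, all with the vehicle-labelled arrays higher, against 13.4% of all genes in either direction and 7.93% with the vehicle-labelled arrays higher.

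Gadd45b read 7.28, 8.37 and 8.16 on the vehicle-labelled brain arrays. All were higher than the 3 sham arrays, with rat 2, whose cortical markers were low, the lowest. The difference of 1.96 ± 0.28 (SE, limma, adjusted p = 0.0587) narrowly missed the threshold and had the 11th smallest p of all genes. Cdkn1a read 7.48, 7.65 and 6.98, a difference of 1.11 ± 0.24 (adjusted p = 0.153). Gadd45a read 7.10, 7.96 and 7.72, a difference of 1.00 ± 0.28 (adjusted p = 0.281). Its lowest vehicle-labelled array, again rat 2, lay below sham rat 5, so these groups overlapped.

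Gadd45g read 5.34, 5.95 and 5.58 in vehicle-labelled brain, all above sham, with a difference of 0.73 ± 0.30 (SE, adjusted p = 0.494). Plk3 read 5.16, 6.27 and 5.76 and overlapped sham, with a difference of 0.65 ± 0.27 (adjusted p = 0.502). Plk2 read 8.01, 9.65 and 9.55, and its difference of 0.30 had a 95% interval from -1.01 to 1.61. Mdm2, Ccng1 and Sesn1 differed by 0.05, -0.07 and 0.07.

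Without the 2 brain arrays low in cortical markers, this comparison called 2 of the 9 genes, where 1.54% of all genes were called and 1.23% as higher. They were Gadd45b at 2.16 ± 0.22 (adjusted p = 0.00202) and Gadd45a at 1.52 ± 0.19 (adjusted p = 0.00443), both higher. Cdkn1a at 1.15 (adjusted p = 0.0907), Plk3 at 0.87 (adjusted p = 0.132) and Gadd45g at 0.96 (adjusted p = 0.242) were not called. That fit rests on 2 sham and 2 vehicle-labelled rats.

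Between the operated groups in brain 0 of the 9 genes passed (limma), where 0.0551% of all genes did, and 2 of the 9 had an unadjusted p under 0.05, where 14.3% of all genes did. The arrays did not overlap on 3 genes, against 21.5% of all genes. Gadd45g was lower on all vehicle-labelled arrays than on all model-labelled arrays, at -1.09 ± 0.30 (SE, adjusted p = 0.201). Sesn1, with 6.89, 6.68 and 6.67 in the vehicle-labelled and 6.35, 6.27 and 6.22 in the model-labelled rats, was higher at 0.47 ± 0.12 (adjusted p = 0.176). Plk2 was lower at -1.12 ± 0.58 (adjusted p = 0.409), and at -0.59 without the 2 brain arrays low in cortical markers, a fit in which 0 of the 9 genes and 0.434% of all genes passed. Gadd45b, Cdkn1a and Gadd45a differed by -0.21, -0.11 and -0.16, each with a 95% interval that spans 0, and without those arrays Gadd45b and Gadd45a turned to 0.12 and 0.09. In the same comparison all 9 oligodendrocyte genes had differences above 0, with 0 that passed, 7 at an unadjusted p under 0.05 and a median of 1.23. Their mean level was 8.66 to 9.39 on the vehicle-labelled against 7.11 to 8.52 on the model-labelled arrays. Of the 13 neutrophil genes 0 passed and 7 were lower at that level. Their part in the values of the growth arrest genes was not tested.

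In white blood cells 0 of the 9 genes passed between model-labelled and sham rats, nor did any of the 14506 genes (limma). At an unadjusted p under 0.05 there were 880 genes, 6.07% of all, 1 of them in the list. This was Plk2, with 4.51, 4.48 and 4.43 in sham and 4.77, 4.82 and 4.83 in model-labelled rats, a difference of 0.33 ± 0.14 (SE, adjusted p = 0.774). Its groups did not overlap, as on 11.1% of all genes, but the level is below the median of all probes. Gadd45b differed by 0.13 with a 95% interval from -0.15 to 0.42, Gadd45g by -0.12 with one from -0.44 to 0.21, and Cdkn1a by 0.09 with one from -0.32 to 0.49. The brain difference of 2.17 in Gadd45b lies far outside the interval of its white cell difference.

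Gadd45a was the 1 gene of the list to pass a test in white blood cells, and the vehicle-labelled rats held the high values. It read 8.09, 8.13 and 8.68 in sham, 8.01, 8.23 and 7.76 in model-labelled and 8.83, 9.16 and 8.98 in vehicle-labelled rats. The 3 vehicle-labelled arrays were the 3 highest of the 9, and the model-labelled arrays overlapped sham. It was higher in vehicle-labelled than in model-labelled rats by 0.99 ± 0.17, with a 95% interval from 0.62 to 1.36 (SE, n = 3 per group; limma, adjusted p = 0.0085). This was 1 of the 9 genes, where 1.56% of all genes passed, 1.26% as higher. Against sham the difference was 0.69 ± 0.17 and did not pass (adjusted p = 0.0612), and 0 of the 9 genes passed there, with 2 at an unadjusted p under 0.05, where 2.01% of all genes passed and 13.4% had an unadjusted p under 0.05.

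The call between the operated groups was lost without vehicle-labelled rat 4 (adjusted p = 0.0563) and in a fit of all 27 arrays (adjusted p = 0.157). Without sham rat 5, Gadd45a passed against sham as well.

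Erythroid markers moved with the same rats. Of 11 measured erythroid genes, 10 were higher in vehicle-labelled than in model-labelled white blood cells and 9 were higher than in sham, with medians of 1.84 and 2.66. Their mean level was 9.37 to 10.25 on the vehicle-labelled arrays, 7.99 to 8.10 on the model-labelled and 7.29 to 7.97 on the sham arrays. The mean of 13 neutrophil genes was 7.63 to 7.98, 6.66 to 7.08 and 6.41 to 6.74 in the same order, with 4 of the 13 higher than in model-labelled rats and 6 higher than in sham. Of 11 T cell genes 1, the transcription factor gene Tcf7, was lower in vehicle-labelled than in model-labelled rats, at -0.81 (adjusted p = 0.0321), with 6 lower at an unadjusted p under 0.05 and a median of -0.43. Their mean level was 8.07 to 8.71 on the vehicle-labelled, 8.66 to 8.97 on the model-labelled and 8.46 to 9.11 on the sham arrays. The part of any of these cell types in the Gadd45a difference was not tested. Among 20 cell cycle genes, the mitotic cyclin gene Ccnb2 and the thymidylate synthase gene Tyms were higher in vehicle-labelled than in model-labelled rats, by 0.93 (adjusted p = 0.00208) and 0.94 (adjusted p = 0.0138). Against sham these were 0.73 (adjusted p = 0.0101) and 0.77 (adjusted p = 0.0384), and Rrm2, a ribonucleotide reductase subunit gene, was also higher, by 1.04 (adjusted p = 0.00735).

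Plk3 had its lowest white blood cell values in the vehicle-labelled rats. It read 4.91, 4.68 and 4.85 in sham, 4.65, 4.79 and 4.74 in model-labelled and 4.20, 4.59 and 4.27 in vehicle-labelled rats, all below the lowest array median. The groups did not overlap, at -0.46 ± 0.13 against sham (SE, limma, adjusted p = 0.0985) and -0.37 ± 0.13 against model-labelled rats (adjusted p = 0.25). Sesn1 was also lower on all vehicle-labelled than on all model-labelled arrays, at -0.31 ± 0.13 (adjusted p = 0.386). Groups that did not overlap numbered 2 of the 9 genes against sham and 3 of the 9 between the operated groups, where 15.3% and 18.9% of all genes did so. Cdkn1a, with 6.30, 6.97 and 6.69 in vehicle-labelled rats, differed from sham by 0.40 ± 0.19 (adjusted p = 0.376), and Mdm2 and Ccng1 by 0.02 and 0.03.

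**Figure D3:**
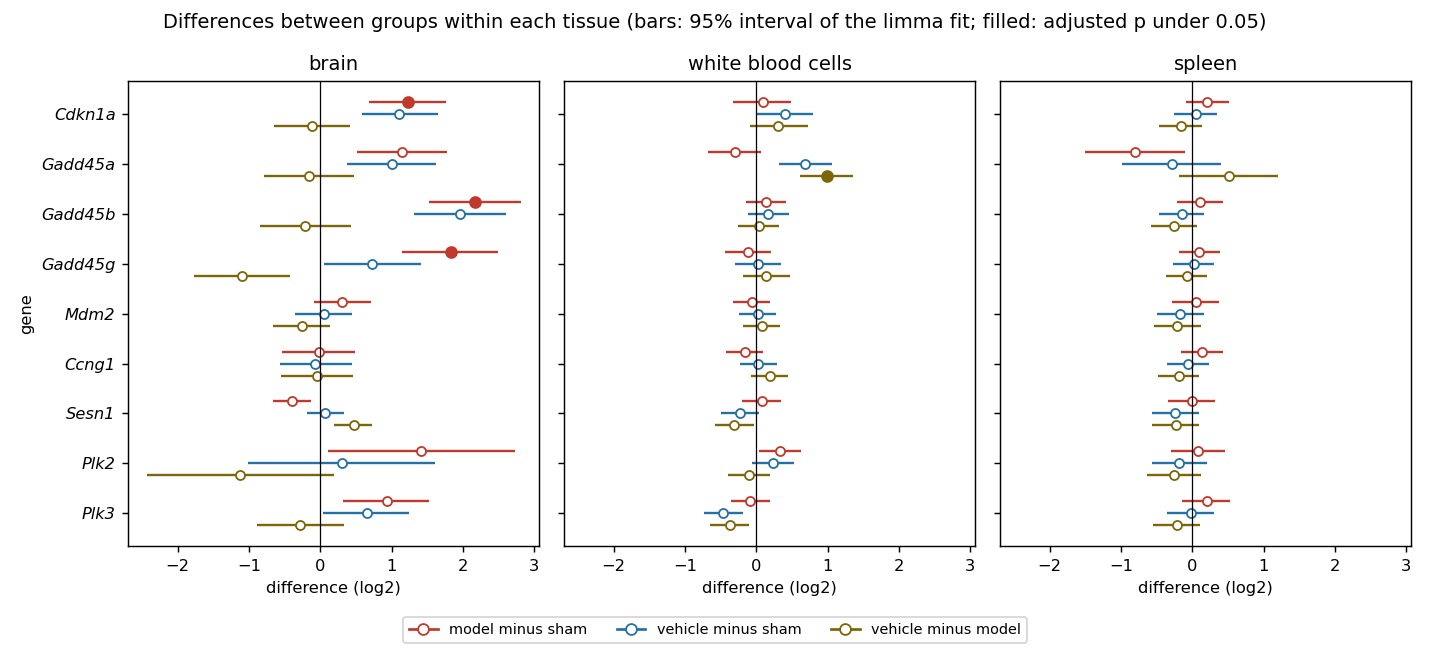
Differences between groups in log2, with 95% intervals, for each gene in brain, white blood cells and spleen (red model minus sham, blue vehicle minus sham, olive vehicle minus model; filled points have an adjusted p under 0.05 in limma). The filled points are Cdkn1a, Gadd45b and Gadd45g in brain, model minus sham, and Gadd45a in white blood cells, vehicle minus model (0.99).

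In spleen 0 of the 9 genes passed in any of the 3 comparisons (limma), where 0.0414% of all genes passed for model-labelled against sham, 0.0483% for vehicle-labelled against sham and 0 between the operated groups. At an unadjusted p under 0.05 the list gave 1, 0 and 0 genes, where 9.5%, 9.35% and 12.9% of all genes were. Medians over the 9 genes were 0.10, -0.15 and -0.21, and over all genes 0.07, 0.04 and -0.02. Arrays of the groups overlapped on every gene but Gadd45b, which was lower on the vehicle-labelled arrays (7.50, 7.49 and 7.62) than on the model-labelled arrays (7.77, 7.68 and 7.94), at -0.26 ± 0.15 (SE, adjusted p = 0.492). Groups did not overlap on 14.7% of all genes there, on 17.3% for model-labelled against sham and on 13.2% for vehicle-labelled against sham.

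Gadd45a had the widest spread of the 9 genes in spleen, 1.56 in log2 from the lowest to the highest array. It read 8.02, 8.47 and 8.98 in sham, 7.48, 8.17 and 7.42 in model-labelled and 8.29, 8.81 and 7.49 in vehicle-labelled rats. All 3 groups overlapped. The difference between model-labelled and sham rats was -0.80 ± 0.32 (SE, limma, adjusted p = 0.472), and between vehicle-labelled and sham rats -0.29 ± 0.32.

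The spleen arrays low in Gadd45a were also low in erythroid and cell cycle genes. The 3 lowest, model-labelled rats 1 and 3 and vehicle-labelled rat 5, had erythroid means of 9.02, 8.54 and 8.28, against 9.55 to 10.38 on the other 6. Their cell cycle means were 6.87, 7.05 and 6.95, against 7.45 to 7.88 on the others. Of the 20 cell cycle genes 0 passed for model-labelled against sham, with 12 lower at an unadjusted p under 0.05 and a median of -0.70. Of the 11 erythroid genes 0 passed, with 2 lower at that level and a median of -0.97. The part of these cells in the Gadd45a values was not tested.

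**Figure D4:**
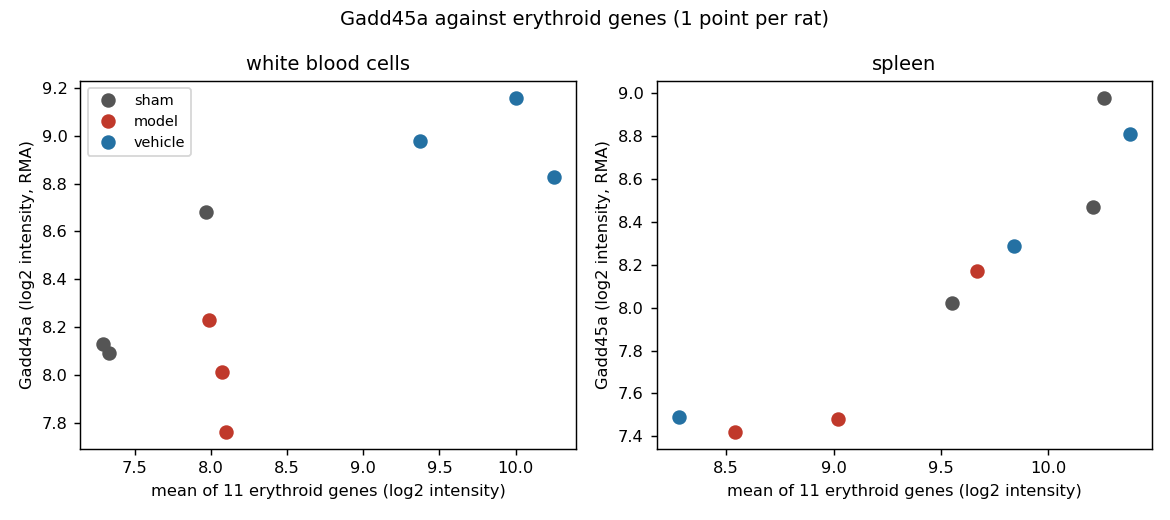
Gadd45a log2 intensity against the mean log2 intensity of 11 erythroid genes, 1 point per rat, in white blood cells and spleen (grey sham, red model-labelled, blue vehicle-labelled). In white blood cells the 3 vehicle-labelled rats lie at erythroid means of 9.37 to 10.25 and Gadd45a of 8.83 to 9.16, above the other 6, and in spleen the 3 rats lowest in Gadd45a, 7.42 to 7.49, are the 3 lowest in the erythroid mean.

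The difference between model-labelled and sham rats was then compared between tissues by an interaction term over all 27 arrays. Against spleen, the brain difference was larger for 3 of the 9 genes, where 0.82% of all genes passed: Gadd45b by 2.06 ± 0.30 (SE, limma, adjusted p = 0.000338), Gadd45g by 1.73 ± 0.32 (adjusted p = 0.00412) and Gadd45a by 1.95 ± 0.43 (adjusted p = 0.0248). The Gadd45a term joins a brain difference of 1.15 with a spleen difference of -0.80, neither of which passed alone. It was lost in 7 of the 18 fits that left out 1 brain or spleen array, namely without brain sham rat 3, brain sham rat 4, brain model-labelled rat 2, spleen sham rats 4 or 5, or spleen model-labelled rats 1 or 3, with an adjusted p of up to 0.093. Against white blood cells 2 of the 9 genes passed, where 1.07% of all genes did: Gadd45b by 2.04 ± 0.30 (adjusted p = 0.000286) and Gadd45g by 1.94 ± 0.32 (adjusted p = 0.00086).

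Cdkn1a passed within brain, but the test of its difference between tissues did not, at 1.02 ± 0.29 against spleen (adjusted p = 0.118) and 1.14 ± 0.29 against white blood cells (adjusted p = 0.0605). Without the 2 brain arrays low in cortical markers the term against white blood cells was 1.23 (adjusted p = 0.0471), and that of Gadd45a was 1.73 (adjusted p = 0.0258). For vehicle-labelled against sham rats, Gadd45b was the 1 gene of the 9 that passed. Within brain its difference of 1.96 did not pass (limma, adjusted p = 0.0587), nor did those of -0.15 in spleen and 0.17 in white blood cells. Its brain difference exceeded that in spleen by 2.11 ± 0.30 (adjusted p = 0.00379), where 0.145% of all genes passed, and that in white blood cells by 1.79 ± 0.30 (adjusted p = 0.00536), where 0.862% did. Between white blood cells and spleen 0 of the 9 genes passed for either label, where 0 and 0.772% of all genes passed. At an unadjusted p under 0.05 these were 0 and 1 genes, where 5.94% and 11.3% of all genes were, the latter being Gadd45a at 0.98 ± 0.43 (adjusted p = 0.395).

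In sham rats the 9 genes had different levels in the 3 tissues, with 7 called between brain and spleen (53.6% of all genes), 6 between brain and white blood cells (59%) and 3 between white blood cells and spleen (39%). Whether the tissues were normalised together is not stated, which bears on these values. Plk2 showed the widest order, with 8.77 ± 1.19 in brain, 7.54 ± 0.18 in spleen and 4.47 ± 0.04 in white blood cells (SD, n = 3). Brain exceeded white blood cells by 4.30 ± 0.40 (SE, limma, adjusted p = 9.48e-10). Brain and spleen arrays overlapped through brain sham rat 5, low in cortical markers, which read 7.41. Their difference of 1.23 (limma, adjusted p = 0.0103) was lost without brain sham rat 3 or 4, at 0.82 (adjusted p = 0.1) and 0.96 (adjusted p = 0.0696). Over the 18 fits that left out 1 array it ran from 0.82 to 1.91. Without the 2 brain arrays low in cortical markers it was 1.91.

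Gadd45b ran in another order, with 7.69 ± 0.27 in spleen, 6.62 ± 0.11 in white blood cells and 5.98 ± 0.44 in brain (SD, n = 3). White blood cells and brain lay close: the difference of -0.64 was lost without brain sham rat 4 or 5, at -0.51 (adjusted p = 0.0688) and -0.52 (adjusted p = 0.0653). Gadd45a was at 8.49 ± 0.48 in spleen and 8.30 ± 0.33 in white blood cells, which were not called apart, and at 6.60 ± 0.51 in brain, lower than in both.

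Mdm2 was lower in sham brain, at 6.57 ± 0.15 (SD, n = 3), than in white blood cells at 7.35 ± 0.17 and spleen at 7.41 ± 0.07, and so was Sesn1, at 6.67 ± 0.14 against 7.19 ± 0.20 and 7.11 ± 0.12. Ccng1 was higher in sham brain, at 9.92 ± 0.38, than in white blood cells at 9.26 ± 0.13 and spleen at 9.30 ± 0.16. Plk3 was highest in spleen, at 5.83 ± 0.29, with brain at 5.08 ± 0.24 and white blood cells at 4.81 ± 0.12 not called apart. Cdkn1a, at 6.26 ± 0.46, 6.25 ± 0.29 and 6.10 ± 0.13 in brain, white blood cells and spleen, gave no call between tissues, nor did Gadd45g, at 4.89 ± 0.16, 4.85 ± 0.33 and 4.97 ± 0.11. Outside brain Gadd45g stayed between 4.53 and 5.20 on all 18 arrays.

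Genes whose pattern was most like that of each member were found as the 2 with the highest Pearson r over the 27 arrays after each tissue mean was subtracted. The arrays share 9 rats, the same groups and their processing, so r is given as a description. Gadd45b was most like Pvr, a cell adhesion receptor gene, and Atf3, a stress-induced transcription factor gene, both with r = 0.91. For Atf3 the likeness lay in brain, where r was 0.96 over 9 arrays, against -0.15 in white blood cells and -0.23 in spleen. For Pvr it was 0.97 in brain, 0.62 in white blood cells and 0.28 in spleen. Gadd45g was most like Egr4, an immediate early transcription factor gene, and Nptx2, a neuronal pentraxin gene, also with r = 0.91 each and with 0.94 and 0.95 within brain. These were 0.35 and 0.10 in white blood cells, and 0.25 and 0.51 in spleen. Without the 2 arrays farthest from the median of Egr4 or of Nptx2, r over all tissues was 0.78 and 0.82.

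Plk2 was most like Kcnv1, a potassium channel subunit gene, and Dnajb5, a co-chaperone gene, with r = 0.89 each. Without the 2 arrays farthest from the median of Kcnv1 or of Dnajb5, each for its own value, these were 0.66 and 0.73. Gadd45a was most like Bach1, a haem-binding repressor gene, with r = 0.85, and Riok3, a kinase gene of erythroid maturation, with r = 0.83. Bach1 held this in each tissue, with r of 0.83 in brain, 0.81 in white blood cells and 0.90 in spleen. Cdkn1a was most like Bcar1 and Pvr (0.80 each), Plk3 like Itpkc and Ptpn1 (0.84 each), Mdm2 like Ddx3x and Msn (0.79 each), Ccng1 like Arf3 (0.80) and Cd34 (0.79), and Sesn1 like Mcee (0.80) and Gtf3c3 (0.78).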

How the data were processed

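Per the submitters' processing notes the authors processed Affymetrix rat Gene arrays with RMA (version and genome build not given in the sources used here). The deposited values were taken to be log2 intensities from their range, since no label gives the scale, and were used without further normalisation. Of 27596 probes, 15310 had 1 gene symbol and were kept, 323 had several and 11963 none; 15279 matched a RefSeq gene table by Entrez ID, which changed 0 symbols. Where a gene had more than 1 probe (527 genes), the brightest on average was used. Probes of the 9 genes were 10828827 (Cdkn1a), 10862867 (Gadd45a), 10900358 (Gadd45b), 10797527 (Gadd45g), 10902564 (Mdm2), 10742145 (Ccng1), 10830561 (Sesn1), 10812954 (Plk2) and 10878938 (Plk3).

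Groups come from the titles. Fits used limma 3.58.1 (R 4.3.3) on the 9 arrays of a tissue with group means as coefficients, leaving 6 residual degrees of freedom. Comparisons between tissues used all 27 arrays and 18 degrees of freedom, with the same variance for a gene in all tissues. P-values are 2-sided, adjusted by Benjamini-Hochberg over all 14506 genes, and under 0.05 counts as passing. Every member is described whether called or not, with up to 4 called genes per related list. The members and lists were chosen with earlier results of these data known. Tested on simulated data, the fits found 97% to 99% of 2-unit and 81% to 86% of 1-unit log2 changes within tissues. Between brain and spleen these were 95% and 61%. False calls numbered 8 to 21 within tissues and 5 between brain and spleen. The 21 were in spleen, where 86% and 99% of 100 changed genes each were found. Their share of the spleen calls was thus above the threshold of 0.05. The simulated noise was independent between arrays, with the same SD for a gene in all tissues. In sham rats Plk2 had an SD of 1.19 in brain and 0.04 in white blood cells, so these shares do not give the power for such genes in brain. With 3 arrays in a group, their number limits the precision. No label gives a date or batch.

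The tissues of a rat are taken as linked by their group and number. Deviations from group means correlated, for 1 rat in a pair of tissues, at -0.058 to 0.517 (median 0.133, 15 of 27 pairs above 0.1). For different rats of a group the median was -0.048, with 2 of 54 pairs above 0.1. Subtracting the group means makes the values of different rats offset those of the same rat, so they are not an independent baseline. With the rat as a block, 80 of 81 member results between tissues kept their call; the exception, Gadd45a in the brain against white blood cell difference for the model label (1.45), was then called (adjusted p = 0.00852). Alternatives were quantile normalisation, a filter at the 40th percentile, the mean of all probes, all 27 arrays in a fit, blocks, an adjusted p under 0.10, and leaving out arrays.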

Additional observations from a re-analysis of the deposited data

Results flagged for a closer look

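A total of 7 member results differed between tissues by an interaction term (limma over 27 arrays), that is, the difference from sham was larger in brain than elsewhere. For the model label against spleen they were Gadd45a by 1.95 (adjusted p = 0.0248), Gadd45b by 2.06 (adjusted p = 0.000338) and Gadd45g by 1.73 (adjusted p = 0.00412). Against white blood cells they were Gadd45b by 2.04 (adjusted p = 0.000286) and Gadd45g by 1.94 (adjusted p = 0.00086). For the vehicle label they were Gadd45b against spleen by 2.11 (adjusted p = 0.00379) and against white blood cells by 1.79 (adjusted p = 0.00536). In the Gadd45b and Gadd45g terms the brain arrays carry the positive difference. For the vehicle label the Gadd45b difference within brain, 1.96, did not pass alone (limma, adjusted p = 0.0587). The Gadd45a term joins 1.15 in brain with -0.80 in spleen, neither of which passed alone. It was lost in 7 of the 18 fits that left out 1 array.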

How the results depend on the processing

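Each of 162 member results, 9 genes in 18 comparisons, was recomputed under the alternatives that apply to it, 3165 values in all. A call was gained in 32 of them and lost in 27. The sign changed in 124, on 51 results, and 0 of these values passed. Members called in brain, model-labelled against sham (3), numbered 6 with all 27 arrays, 0 with a replicate block and 1 to 3 with an array left out (1 without sham rat 3, sham rat 4 or model-labelled rat 3). For vehicle-labelled against sham in brain (0) they were 1 with the 40th percentile filter, 1 at an adjusted p under 0.10, 2 with all 27 arrays, 2 without the 2 brain arrays low in cortical markers, and 0 to 1 with an array left out (1 without vehicle-labelled rat 2). Between the operated groups in brain (0) there was 1 with all 27 arrays. In white blood cells, vehicle-labelled against sham (0) gave 2 at an adjusted p under 0.10 and 0 to 1 with an array left out, and against model-labelled (1) gave 0 with the replicate block, 0 with all 27 arrays and 0 to 1 with an array left out. Between tissues, brain against spleen for the vehicle label (1) gave 2 without those brain arrays, brain against white blood cells for the model label (2) gave 4 without them and 2 to 3 with an array left out, and for the vehicle label (1) gave 2 without them, 2 at an adjusted p under 0.10 and 1 to 2 with an array left out (2 without the brain array of vehicle-labelled rat 2).

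The replicate block on number within a tissue is not a pairing, since equal numbers in different groups are different rats: 12 such pairs correlated between -0.474 and 0.377, 2 of them above 0.1. With this block 4 calls were lost, namely Gadd45b (2.33, adjusted p = 0.233), Gadd45g (1.69, adjusted p = 0.141) and Cdkn1a (0.99, adjusted p = 0.709) in brain and Gadd45a in white blood cells (0.76, adjusted p = 0.537).

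Counts over all genes moved more. In brain they were 168, 7 and 8 for model-labelled against sham, vehicle-labelled against sham and vehicle-labelled against model-labelled, with 0 to 557, 0 to 224 and 0 to 346 over the alternatives other than leaving out 1 array, and 70 to 256, 0 to 106 and 0 to 40 over those that left out 1. In white blood cells 0, 291 and 226 became 0 to 16, 107 to 442 and 7 to 324, and 0 to 3, 162 to 350 and 108 to 273. In spleen 6, 7 and 0 became 0 to 62, 0 to 29 and 0 to 107, and 0 to 21, 0 to 16 and 0 to 317.

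With quantile normalisation the values that changed sign were Ccng1 0.07 (brain, model minus sham), Ccng1 -0.06 and Mdm2 -0.01 (white blood cells, vehicle minus sham), Gadd45g -0.05 and Plk3 0.00 (spleen, vehicle minus sham), Ccng1 0.03 and Plk2 -0.05 (brain against white blood cells for the vehicle label) and Ccng1 -0.04 and Sesn1 -0.08 (white blood cells against spleen for the vehicle label). With the replicate block the values that changed sign were Ccng1 0.23 (brain, model minus sham), Ccng1 0.01 (brain, vehicle minus sham), Cdkn1a 0.21 (brain, vehicle minus model), Plk3 0.00 and Sesn1 -0.04 (white blood cells, model minus sham), Gadd45b -0.13 (white blood cells, vehicle minus model), Gadd45g -0.06 (spleen, model minus sham), Ccng1 0.01, Cdkn1a -0.01 and Gadd45g -0.02 (spleen, vehicle minus sham) and Gadd45g 0.03 (spleen, vehicle minus model). Without the 2 brain arrays low in cortical markers the values that changed sign were Ccng1 0.17, Gadd45a 0.09, Gadd45b 0.12 and Plk3 0.00 (brain, vehicle minus model), Cdkn1a -0.09 and Gadd45g -0.05 (sham, brain minus white blood cells), Ccng1 -0.07 (brain against white blood cells for the model label) and Plk2 -0.08 (brain against white blood cells for the vehicle label). With 1 array left out, sign changes gave these ranges. For brain, model minus sham, Ccng1 ran from -0.23 to 0.14. For brain, vehicle minus sham, Ccng1 ran from -0.28 to 0.15, Mdm2 from -0.04 to 0.19, Plk2 from -0.38 to 0.83 and Sesn1 from -0.01 to 0.12. For brain, vehicle minus model, Ccng1 ran from -0.21 to 0.17, Cdkn1a from -0.25 to 0.08, Gadd45a from -0.34 to 0.09, Gadd45b from -0.43 to 0.12 and Plk3 from -0.55 to 0.00. For white blood cells, model minus sham, Cdkn1a ran from -0.07 to 0.20, Gadd45g from -0.27 to 0.06, Mdm2 from -0.11 to 0.04 and Sesn1 from -0.02 to 0.18. For white blood cells, vehicle minus sham, Ccng1 ran from -0.05 to 0.11, Gadd45g from -0.13 to 0.20 and Mdm2 from -0.03 to 0.11. For white blood cells, vehicle minus model, Gadd45b ran from -0.03 to 0.16 and Plk2 from -0.25 to 0.03. For spleen, model minus sham, Gadd45b ran from -0.02 to 0.24, Mdm2 from -0.03 to 0.10, Plk2 from -0.02 to 0.27 and Sesn1 from -0.11 to 0.09. For spleen, vehicle minus sham, Cdkn1a ran from -0.07 to 0.12, Gadd45a from -0.60 to 0.06, Gadd45g from -0.09 to 0.11, Mdm2 from -0.26 to 0.00 and Plk3 from -0.11 to 0.14. For spleen, vehicle minus model, Gadd45g ran from -0.19 to 0.01. For sham, brain minus spleen, Cdkn1a ran from -0.02 to 0.42. For sham, brain minus white blood cells, Cdkn1a ran from -0.17 to 0.27 and Gadd45g from -0.11 to 0.22. For sham, white blood cells minus spleen, Ccng1 ran from -0.13 to 0.03, Gadd45a from -0.42 to 0.06, Gadd45g from -0.30 to 0.03 and Sesn1 from -0.02 to 0.18. For brain against spleen for the model label, Ccng1 ran from -0.36 to 0.01. For brain against spleen for the vehicle label, Ccng1 ran from -0.22 to 0.21 and Plk2 from -0.20 to 1.01. For brain against white blood cells for the model label, Ccng1 ran from -0.07 to 0.30. For brain against white blood cells for the vehicle label, Ccng1 ran from -0.31 to 0.12, Mdm2 from -0.07 to 0.17 and Plk2 from -0.61 to 0.60. For white blood cells against spleen for the model label, Gadd45b ran from -0.11 to 0.16 and Sesn1 from -0.01 to 0.19. For white blood cells against spleen for the vehicle label, Gadd45g ran from -0.15 to 0.18 and Sesn1 from -0.12 to 0.11.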
